A study of Mus musculus with 9 samples.

Results

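The 40 genes described here encode proteins of the adult skeletal muscle fibre, and they were read in RNA of whole mouse liver. Their symbols were chosen because earlier work on these counts had shown them high in some of the liver libraries, so their levels and fold changes are given as a description. All 40 were found among the 56719 genes listed for each library. Of these, 39 passed the filter on low counts and 1, the troponin gene Tnnc2, did not.

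The study compared livers of C57BL/6J mice in 3 groups of 3 libraries. FMT-Con A mice were gavaged for 4 weeks with a PBS suspension of faeces taken from mice of the Con A hepatitis model, and were given 10 mg/kg of Con A into the tail vein on the day of collection. Con A, concanavalin A, is a lectin of plant origin; injected, it sets off T cells and a hepatitis. Con A mice had PBS in those 4 weeks and the same injection, and WT mice had PBS both times. No group carries an engineered allele. The labels name the sex as female in one field and male in another. None of the Y-linked genes Ddx3y, Eif2s3y, Kdm5d and Uty was at 0 in any of the 9 libraries. The same held for the X-linked gene Xist. The labels number the mice of a group and say nothing more of where the libraries came from, so the spread between libraries may be in part technical.

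Skeletal muscle contracts when myosin thick filaments pull on actin thin filaments inside repeating units called sarcomeres. Calcium released from the sarcoplasmic reticulum switches the thin filament on through the troponin complex, and a calcium pump switches it off. Fibres are typed by the myosin heavy chain they carry, from slow (Myh7) through fast oxidative (Myh2) and intermediate (Myh1) to fast glycolytic (Myh4). Liver cells build no sarcomeres, and most of these genes are textbook markers of muscle and not of liver. Transcription of muscle genes is driven by MyoD-family factors at E-boxes, by MEF2, by serum response factor at CArG boxes and by TEAD factors at M-CAT sites.

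The promoters of 4 members are shown because these genes stand for the actin, energy, fast myosin and liver-expressed members of the set. Each runs from 250 bases before to 50 bases after the gene's start in RefSeq on GRCm38.p6, in the direction of transcription. Capitals mark the E-box form CAGCTG, the M-CAT site CATTCC, the MEF2 site, the CArG box and the TATA box TATAAA, on either strand. A MEF2 site and TATAAA may overlap.
Acta1, chr8:123894726-123895025, minus strand: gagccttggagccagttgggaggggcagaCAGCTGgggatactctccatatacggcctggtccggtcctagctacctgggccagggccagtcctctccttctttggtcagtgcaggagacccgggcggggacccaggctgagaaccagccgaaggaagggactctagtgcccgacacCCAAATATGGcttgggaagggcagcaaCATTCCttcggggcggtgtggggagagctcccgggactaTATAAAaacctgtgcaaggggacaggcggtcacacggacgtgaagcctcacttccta
Ckm, chr7:19410844-19411143, plus strand: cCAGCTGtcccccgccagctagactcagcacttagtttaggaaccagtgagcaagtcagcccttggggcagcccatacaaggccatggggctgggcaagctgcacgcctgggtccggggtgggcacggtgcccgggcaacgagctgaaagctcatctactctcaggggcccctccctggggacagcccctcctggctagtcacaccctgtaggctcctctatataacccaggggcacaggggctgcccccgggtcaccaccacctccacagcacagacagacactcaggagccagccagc
Myh4, chr11:67237562-67237861, plus strand: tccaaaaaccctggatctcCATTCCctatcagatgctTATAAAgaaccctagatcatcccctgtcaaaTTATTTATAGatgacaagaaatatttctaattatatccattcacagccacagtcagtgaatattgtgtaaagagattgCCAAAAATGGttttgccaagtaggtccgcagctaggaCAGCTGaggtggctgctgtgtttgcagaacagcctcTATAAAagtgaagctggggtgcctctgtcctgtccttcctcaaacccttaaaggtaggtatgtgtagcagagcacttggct
Eno3, chr11:70656926-70657225, plus strand: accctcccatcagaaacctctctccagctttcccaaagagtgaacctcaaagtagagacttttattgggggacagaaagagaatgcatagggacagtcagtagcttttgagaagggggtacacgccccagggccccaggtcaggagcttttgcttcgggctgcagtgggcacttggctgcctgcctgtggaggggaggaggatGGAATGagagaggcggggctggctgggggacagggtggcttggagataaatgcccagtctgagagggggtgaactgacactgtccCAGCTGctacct
RefSeq promoters were matched for 30 of the 40 members. CAGCTG, the E-box form that MyoD-family factors bind, was found in 53.3% of those 30 promoters and in 16.1% of 27025 promoters of the same length. The looser E-box CANNTG was in 80% of member promoters and 72.1% of all promoters. CATTCC was in 33.3% and 14.6%, the MEF2 site in 16.7% and 3.26%, the CArG box in 6.67% and 1.57%, and TATAAA in 26.7% and 14.2%. The Myh4 window held all 5 marked motifs, and that of Ckm held CAGCTG alone. These matches describe letters in a window and are no evidence that a factor was bound.

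Libraries of the same group differed greatly in these genes. Summed over the 40 members, the level was 23003, 2123 and 22873 CPM (counts per 1000000 counts of the library) in FMT-Con A 1, 2 and 3, against 14.5, 26.1 and 2332 CPM in Con A 1, 2 and 3. The sum was 69, 56 and 72.5 CPM in WT 1, 2 and 3. Members thus took 2.3% (exact 95% interval 2.29 to 2.31%) of all counts in FMT-Con A 1 and 2.29% in FMT-Con A 3, but 0.212% in FMT-Con A 2. They took 0.233% in Con A 3, 0.00145% and 0.00261% in Con A 1 and 2, and 0.0056 to 0.00725% in WT. FMT-Con A 1 and 3 were level with each other (ratio 1.01) and 10.8-fold above FMT-Con A 2, which was 0.91 times Con A 3. Con A 3 stood 161-fold above Con A 1 and 89.2-fold above Con A 2. Neb and Eno3, the members with a clear WT level, weigh on the lower of these sums. Without them the sum was 21945, 2023 and 21799 CPM in FMT-Con A, and 5.7, 11.3 and 2215 CPM in Con A. In WT 1, 2 and 3 it was then 15.1, 6.41 and 13.7 CPM. In bulk RNA of this kind, fewer cells of a type and less RNA per cell cannot be told apart. All intervals cover counting error only.

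**Figure D1:**
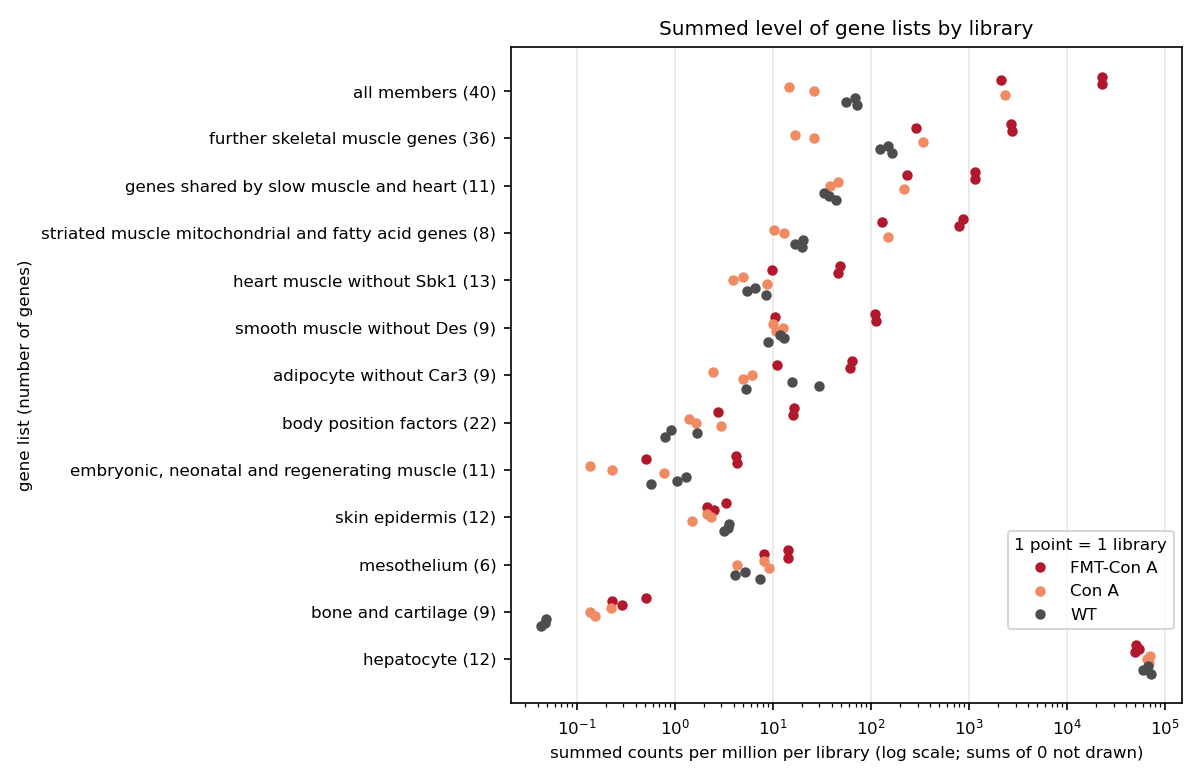
Summed CPM (x axis, log scale) of the 40 members and of 12 other gene lists, with 1 point per library and the groups in colour. The members' sums lie at 2123 to 23003 CPM in FMT-Con A, at 14.5 to 2332 CPM in Con A and at 56 to 72.5 CPM in WT, while the hepatocyte sums stay within 49481 to 72866 CPM.

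Total counts ran from 20513051 to 29466806 per library, so 3 counts, the limit that a count of 0 allows, equal 0.1 to 0.15 CPM. No member was at 0 in the 3 FMT-Con A libraries, while 15, 12 and 1 were at 0 in Con A 1, 2 and 3, and 11, 19 and 13 in WT 1, 2 and 3. When the counts of each gene were set against each other, no 2 libraries differed less than FMT-Con A 1 and 3, whose median chi-square per gene was 2.54 times the one that sampling alone gives. That multiple was 3.25 for WT 1 and WT 2, 10.1 and 10.3 for FMT-Con A 2 with FMT-Con A 1 and 3, and 7.46 for Con A 1 and 3. For Con A 2 it was 9.93 with FMT-Con A 2, 11.4 with Con A 1 and 12.6 with Con A 3. By these values Con A 1 and 3 were the closest Con A pair. In the members' sums, however, Con A 3 stood apart from Con A 1 and 2, and FMT-Con A 2 from FMT-Con A 1 and 3. For that reason the counts of called genes below are also given without these libraries.

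The myosin heavy chains, the motor proteins of the thick filament, gave the largest CPM sum of any role in FMT-Con A 1 and 3. In FMT-Con A 2 and Con A 3 the thin filament did. These sums are not set per length and cover unlike numbers of genes, so they do not rank the roles by abundance. Myh2, Myh1 and Myh4 lie side by side on GRCm38 chromosome 11 (Myh2 chr11:67171027-67197517, Myh1 chr11:67200052-67224575, Myh4 chr11:67238029-67260446, all plus strand). Myh4, the chain of the fastest fibres, had 4082, 222 and 4167 CPM in FMT-Con A 1, 2 and 3. It had 0.181, 0.827 and 167 CPM in Con A 1, 2 and 3, and 1.27, 0.0957 and 1.23 CPM in WT. FMT-Con A 1 and 3 were far above every other library, and Con A 3 was a little below FMT-Con A 2. Myh1 had 1806, 173 and 1872 CPM in FMT-Con A, 0.181, 0.965 and 284 CPM in Con A, and 0.585, 0.0957 and 0.571 CPM in WT. Here Con A 3 was above FMT-Con A 2, so the groups overlapped. Myh2 had 843, 88.6 and 887 CPM in FMT-Con A, 0.0905, 0.184 and 132 CPM in Con A, and 0.487, 0.0479 and 0.307 CPM in WT. Con A 3 was again above FMT-Con A 2. Myh7 (chr14:54970684-54994626, minus strand), the slow chain, had 175, 8.76 and 174 CPM in FMT-Con A, 0.588, 0.0919 and 14.3 CPM in Con A, and 0, 0 and 0.176 CPM in WT. Its Con A 3 value exceeded that of FMT-Con A 2. Of the windows of 150 transcript bases in these genes, 0.256% of Myh4, 2.19% of Myh1, 1.75% of Myh2 and 3.64% of Myh7 also occur in a sister gene, which for Myh7 is Myh6.

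**Figure D2:**
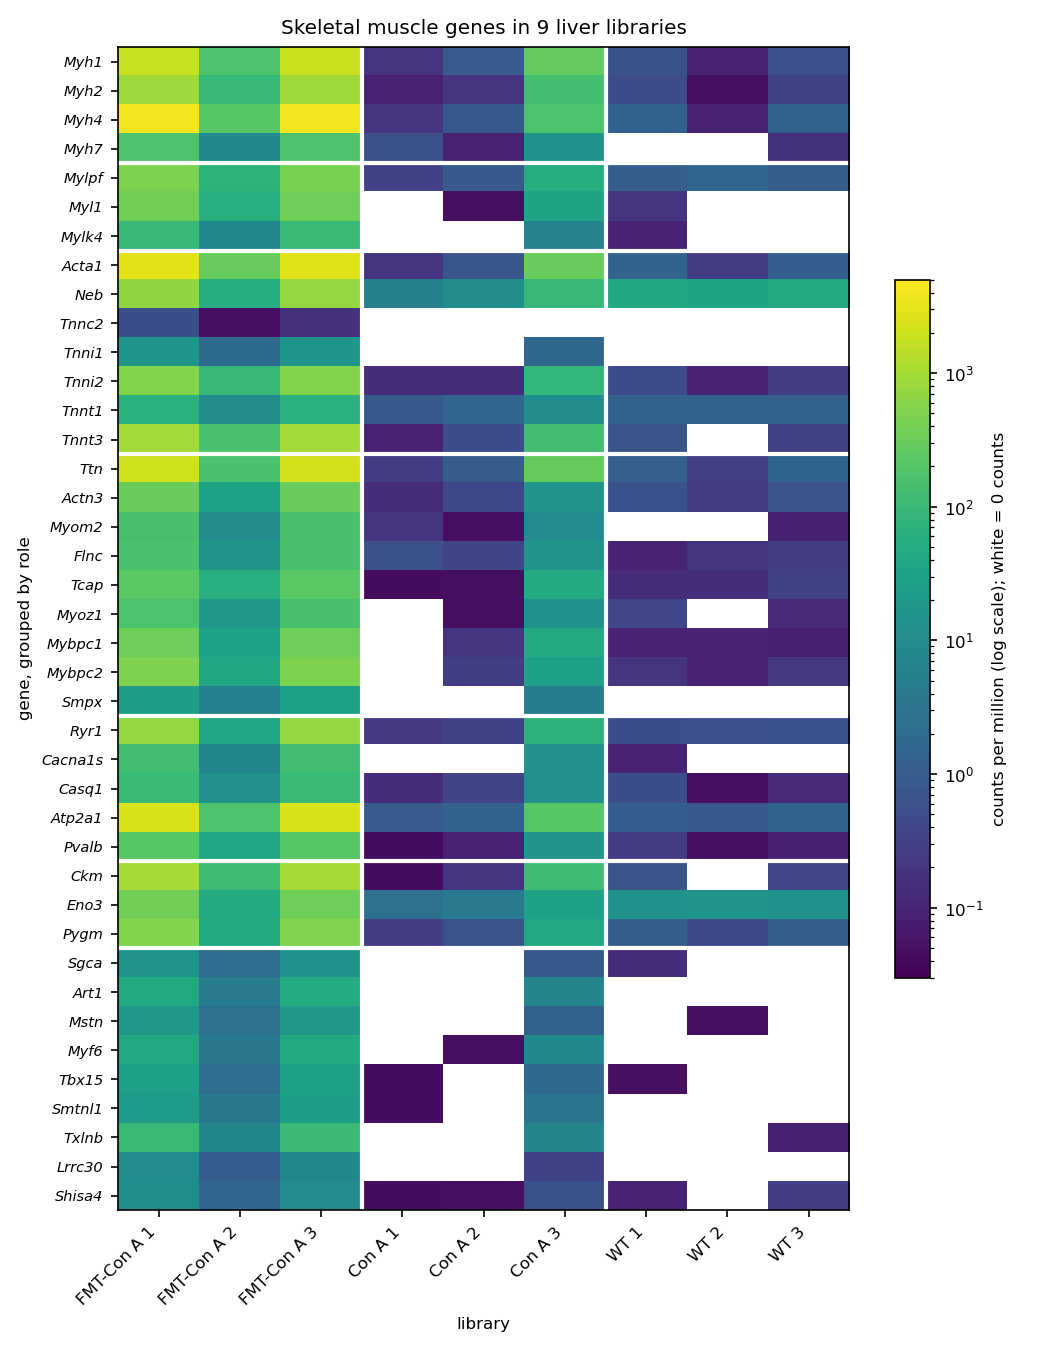
CPM (colour, log scale) of the 40 members in rows grouped by role and of the 9 libraries in columns, with white for 0 counts. FMT-Con A 1 and 3 are the brightest columns, FMT-Con A 2 and Con A 3 resemble each other at a lower level, and only Neb and Eno3 exceed 10 CPM in WT.

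The light chains and the myosin kinase followed the heavy chains. Mylpf (chr7:127208890-127214298, plus strand), the regulatory light chain of fast fibres, had 475, 76.4 and 436 CPM in FMT-Con A, 0.317, 0.873 and 55 CPM in Con A, and 1.12, 1.53 and 1.14 CPM in WT. Myl1 (chr1:66924295-66945404, minus strand), the fast essential light chain, had 361, 57.2 and 350 CPM in FMT-Con A, 0, 0.0459 and 34.2 CPM in Con A, and 0.195, 0 and 0 CPM in WT. For both, every FMT-Con A library was above Con A 3. Mylk4 (chr13:32700834-32783954, minus strand), a kinase of the myosin light chain kinase family, had 96.3, 8.06 and 99.7 CPM in FMT-Con A, 0, 0 and 6.18 CPM in Con A, and 0.0975, 0 and 0 CPM in WT. Its groups did not overlap either. A processed copy of Mylpf, Mylf-ps, was listed at 9.47, 1.67 and 8.87 CPM in FMT-Con A, and whether the pair shares reads was not tested.

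The thin filament was represented by actin, nebulin and the troponins. Acta1 (chr8:123891769-123894751, minus strand), the actin of adult skeletal muscle, had 3074, 304 and 2774 CPM in FMT-Con A, 0.181, 0.735 and 309 CPM in Con A, and 1.41, 0.239 and 1.1 CPM in WT. Con A 3 and FMT-Con A 2 were nearly equal. Tnnt3 (chr7:142498836-142516009, plus strand), the fast troponin T that anchors the complex to tropomyosin, had 944, 158 and 937 CPM in FMT-Con A, 0.0905, 0.505 and 130 CPM in Con A, and 0.731, 0 and 0.307 CPM in WT. Its FMT-Con A libraries were all above the others. Tnni2, the fast inhibitory troponin, behaved alike with 89.8 to 547 CPM in FMT-Con A, 0.136 to 85.2 CPM in Con A and 0.0957 to 0.487 CPM in WT.

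The slow forms of troponin were much lower. Tnni1 (chr1:135779434-135810989, plus strand), the slow inhibitory troponin, had 17.6, 2.04 and 17 CPM in FMT-Con A, 0, 0 and 1.66 CPM in Con A, and 0 in the 3 WT libraries. Tnnt1 (chr7:4504570-4516382, minus strand), the slow troponin T, had 65.8, 11.1 and 64.1 CPM in FMT-Con A, 0.905, 1.52 and 11.2 CPM in Con A, and 1.32, 1.29 and 1.27 CPM in WT. A low and steady Tnnt1 level was thus seen in WT and in Con A 1 and 2, while Con A 3 equalled FMT-Con A 2. Tnnc2, the calcium-binding troponin of fast fibres, was the exception among the members, with 0.543, 0.0463 and 0.165 CPM in FMT-Con A and 0 in the other 6 libraries. Of its 800 annotated exon bases, 74% are shared with Ube2c on the opposite strand, which had 0.781 to 1.53 CPM over the 9 libraries. Whether shared bases bear on the Tnnc2 count was not tested. Tnnc2 is singled out here after its values were seen.

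Neb differed from the other members in its WT level. Neb (chr2:52136647-52378474, minus strand) encodes nebulin, which runs along the thin filament, and had 690, 53.6 and 722 CPM in FMT-Con A. It had 5.93, 10.7 and 88.4 CPM in Con A, and 39.6, 33.8 and 44.8 CPM in WT. WT therefore lay above Con A 1 and 2 and below Con A 3, and FMT-Con A 2 was only a little above WT.

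The scaffold of the sarcomere holds the filaments in register. Ttn (chr2:76703980-76982547, minus strand), titin, the molecular spring from Z disc to M line, had 2084, 162 and 2248 CPM in FMT-Con A, 0.272, 1.06 and 287 CPM in Con A, and 1.17, 0.287 and 1.45 CPM in WT. Con A 3 was above FMT-Con A 2. Mybpc2 (chr7:44501699-44524656, minus strand), the fast myosin-binding protein C, had 498, 40.9 and 466 CPM in FMT-Con A, 0, 0.276 and 28.9 CPM in Con A, and 0.195, 0.0957 and 0.22 CPM in WT. Mybpc1 (chr10:88518279-88605152, minus strand), the slow form, had 348, 31.3 and 349 CPM in FMT-Con A, 0, 0.184 and 47.5 CPM in Con A, and 0.0975, 0.0957 and 0.0878 CPM in WT. The fast form was lower in Con A 3 than in FMT-Con A 2, and the slow form was higher there. The other 6 scaffold members ranged in FMT-Con A 1 from 25.6 CPM for Smpx to 337 CPM for Actn3, the fast-fibre actinin of the Z disc. In Con A 3 they ranged from 4.71 CPM for Smpx to 46.6 CPM for Tcap, which caps titin at the Z disc, and all 6 were below 1 CPM in Con A 1, Con A 2 and WT. Flnc (filamin C), Myom2 (an M-band protein) and Myoz1 (a Z-disc protein) lay between.

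Genes of calcium handling were also highest in FMT-Con A 1 and 3, and differed in the order of FMT-Con A 2 and Con A 3. Atp2a1 (chr7:126445858-126463108, minus strand), the fast-fibre calcium pump, had 2417, 169 and 2431 CPM in FMT-Con A, 0.95, 1.29 and 213 CPM in Con A, and 1.07, 0.814 and 1.36 CPM in WT. Ryr1 (chr7:29003344-29125179, minus strand), the calcium release channel, had 708, 34.6 and 699 CPM in FMT-Con A, 0.226, 0.322 and 69 CPM in Con A, and 0.536, 0.574 and 0.615 CPM in WT. For both, Con A 3 exceeded FMT-Con A 2. Pvalb (chr15:78191114-78206400, minus strand), parvalbumin, the calcium buffer of fast fibres, had 218, 34.9 and 225 CPM in FMT-Con A, 0.0453, 0.0919 and 16.2 CPM in Con A, and 0.244, 0.0479 and 0.0878 CPM in WT. Here FMT-Con A 2 was above Con A 3. Cacna1s, the voltage sensor, and Casq1, the calcium store protein, had 126 and 101 CPM in FMT-Con A 1 and 13.1 CPM each in Con A 3. Antisense neighbours share 21.9% of the exon bases of Atp2a1 and 20% of those of Cacna1s.

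Of the energy genes, 2 were near 0 in WT and 1 was not. Ckm (chr7:19404776-19422841, plus strand), muscle creatine kinase, had 1048, 116 and 996 CPM in FMT-Con A, 0.0453, 0.184 and 117 CPM in Con A, and 0.731, 0 and 0.395 CPM in WT. Pygm (chr19:6384399-6398459, plus strand), the glycogen phosphorylase of muscle, had 538, 45.2 and 508 CPM in FMT-Con A, 0.272, 0.689 and 42.5 CPM in Con A, and 1.12, 0.431 and 1.14 CPM in WT. Con A 3 and FMT-Con A 2 were almost equal for both. Eno3 (chr11:70657202-70662513, plus strand), the muscle enolase of glycolysis, had 368, 46.6 and 353 CPM in FMT-Con A, 2.85, 4.13 and 29.3 CPM in Con A, and 14.4, 15.7 and 14.1 CPM in WT. Like Neb, Eno3 was lower in Con A 1 and 2 than in WT.

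The membrane, signalling and gene control members had the lowest CPM sum of any role, and were highest in the same libraries. That sum is not set per length. Per kilobase of exons in FMT-Con A 1, Myf6 at 34.3 CPM was above Ryr1 at 32.4 and Ttn at 17.8. Txlnb (chr10:17796226-17845665, plus strand), muscle taxilin, had 103, 7.55 and 108 CPM in FMT-Con A, 0, 0 and 7.18 CPM in Con A, and 0, 0 and 0.0878 CPM in WT. Art1 (chr7:102101743-102113933, plus strand), a cell surface ADP-ribosyltransferase, had 44.2, 4.45 and 48.2 CPM in FMT-Con A, 0, 0 and 7.03 CPM in Con A, and 0 in WT. Of its exon bases, 36.5% are shared with Chrna10 on the opposite strand. Myf6 (chr10:107492853-107494737, minus strand), the MyoD-family factor kept on in adult fibres, had 43.3, 3.71 and 44.5 CPM in FMT-Con A, 0, 0.0459 and 9.58 CPM in Con A, and 0 in WT. Myf6 and Art1 were higher in Con A 3 than in FMT-Con A 2. Tbx15 (chr3:99240381-99354259, plus strand), a T-box factor of fast glycolytic fibres, had 29.7, 2.36 and 29.7 CPM in FMT-Con A, 0.0453, 0 and 1.85 CPM in Con A, and 0.0487, 0 and 0 CPM in WT. Mstn (chr1:53061640-53068079, plus strand), myostatin, a secreted inhibitor of muscle growth, had 19, 2.78 and 19.7 CPM in FMT-Con A, 0, 0 and 1.27 CPM in Con A, and 0, 0.0479 and 0 CPM in WT. For these 2 genes every FMT-Con A library was above every other library. The remaining 4 members of the role had 10.2 to 22.8 CPM in FMT-Con A 1, 0.309 to 3.21 CPM in Con A 3 and at most 0.264 CPM in Con A 1, Con A 2 and WT. They were Smtnl1 (a smoothelin-like protein), Sgca (alpha-sarcoglycan of the fibre membrane), Shisa4 and Lrrc30.

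Levels of different genes can be set side by side only per length. In FMT-Con A 1, Acta1 was the highest member at 2001 CPM per kilobase of annotated exons, ahead of Atp2a1 at 695, Myh4 at 679, Tnnt3 at 597 and Mylpf at 447. Ttn, with 116825 exon bases the longest member, had 17.8 CPM per kilobase. The lowest were Tnnc2 at 0.679, Shisa4 at 4.84 and Tnni1 at 4.88 CPM per kilobase.

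Each comparison was tested in 1 edgeR quasi-likelihood fit over all 9 libraries and 17704 genes, with adjusted p under 0.05 as the call. Because high values in these libraries chose the members, no support is drawn from the counts. In FMT-Con A against Con A, 14 of the 39 tested members were called higher and 0 lower, where 16.8% of all genes were called and 6.26% were called higher. The 14 were Shisa4, Lrrc30, Sgca, Eno3, Mstn, Tbx15, Actn3, Mylk4, Tnnt1, Myom2, Txlnb, Flnc, Pvalb and Neb. Acta1, Myh4, Atp2a1, Ttn and Myh1, the members of highest mean level, were not among them. Myh4 had a log2 fold change of 5.45 (SE 2.02), Acta1 of 4.11 (SE 1.94) and Myh1 of 3.55 (SE 1.85). Shisa4 had 4.79 (SE 0.97) and Eno3 4.19 (SE 0.95). All 39 fold changes were positive (median 4.16, range 3.01 to 5.58), beside a median of -0.01 over all genes.

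That count depended on single libraries. Without Con A 3 it was 39, and the median log2 fold change was 10.89, while 984 of 18446 genes were called higher. In Con A 1 and 2, 15 and 12 members were at 0, and some, such as Mylk4, Cacna1s and Txlnb, in both. That median thus rests in part on counts of 0 and is no measured fold change. The members' count was 0 without FMT-Con A 1, beside 151 of 18258 genes. It was 0 without Con A 1 too, beside 192 of 18504 genes. Without FMT-Con A 3 it was 1 (Shisa4), beside 198 of 18266 genes. The count over all genes thus fell too without FMT-Con A 1, FMT-Con A 3 or Con A 1, from 1108 of 17704. Without FMT-Con A 2 the members' count was 22, beside 1908 of 18525 genes. With FMT-Con A 1 and 3 both left out, which leaves 1 FMT-Con A library, the median log2 fold change was 1.57. Leaving out WT 1, 2 or 3 gave 5, 6 and 6 members, and leaving out Con A 2 gave 7. Over all genes these settings gave 666, 788, 857 and 1631 called higher. On scaled CPM, 23 of 39 members had every FMT-Con A library above every Con A library, as 14.0% of all genes did. In the other 16 Con A 3 reached FMT-Con A 2 or passed it, and they include Acta1, Atp2a1, Ckm, Myh1, Myh2, Ryr1 and Ttn.

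In Con A against WT, 22 of 39 members were called higher and 0 lower, where 63.4% of all genes were called and 32.5% were called higher. With only the Con A and WT libraries in the fit, just 13 members passed the filter on low counts. Of these, 9 were called higher, beside 5498 of 16836 genes. Without Con A 3, 0 members were called higher and 1 (Eno3) was called lower, where 5425 of 18446 genes were called higher. The median log2 fold change was then -0.62 in place of 6.21. Most members had few or no counts in Con A 1, Con A 2 and WT, so -0.62 is no measured decrease. Tnni1, Smpx, Art1 and Lrrc30 had 0 counts in all of these libraries. With the 6 members at 0 in all WT libraries set against 3 counts per library, the median with all libraries was 5.49. Without Con A 3, the members with a clear WT level were at -1.87 on the log2 scale for Eno3 and at -2.04 for Neb. With all libraries these 2 had -0.10 (SE 0.85) and 0.00 (SE 0.98). The groups did not overlap for 1 member, Flnc, where 35.0% of all genes were higher without overlap. Flnc had 0.588, 0.367 and 15.3 CPM in Con A, against 0.0975, 0.191 and 0.264 CPM in WT. Leaving out 1 WT library also gave 0 members called higher, whichever library it was, while 5054 to 5247 of all genes were called higher.

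In FMT-Con A against WT, 39 of 39 members were called higher, where 59.0% of all genes were called and 31.2% were called higher. The FMT-Con A and WT libraries did not overlap for any of the 39, as for 35.4% of all genes in that direction. The median log2 fold change was 10.55 beside 0.03 over all genes. Of the 39, 6 (Tnni1, Smpx, Art1, Myf6, Smtnl1, Lrrc30) were at 0 in all 3 WT libraries. With these set against 3 counts per library, the median was 9.67. Fold changes of the others ran from 3.59 for Neb to 11.85 for Myl1. Leaving out any single library gave 38 or 39 called, and with FMT-Con A 1 and 3 both left out 30 were called. This comparison shares its FMT-Con A libraries with the first and its WT libraries with the second.

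The proportions among the members were then compared between the 4 libraries with 2123 CPM or more. In FMT-Con A 1 and 3 each member took nearly the same share of the members' counts, with a median difference of 0.059 on the log2 scale and none of 39 over 0.5. For the other pairs among the 4 libraries the median difference was 0.392 to 0.522, and 15 to 20 members were over 0.5. The ratio of FMT-Con A 1 to FMT-Con A 3 ran from 0.873 for Smpx to 1.24 for Lrrc30. Against FMT-Con A 2 the ratio of FMT-Con A 1 ran from 4.12 for Tcap to 20.5 for Ryr1. Against Con A 3 it ran from 4.52 for Myf6 to 24.5 for Myh4. FMT-Con A 2 and Con A 3 had almost the same sum but not the same mixture, with FMT-Con A 2 over Con A 3 from 0.387 for Myf6 to 2.56 for Shisa4.

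**Figure D3:**
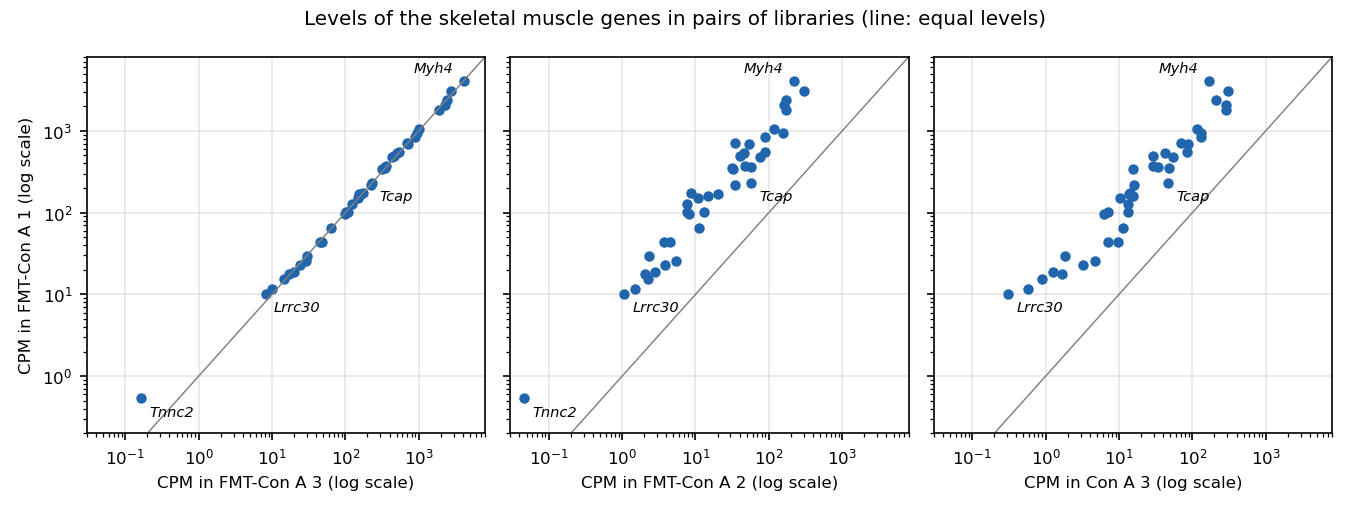
CPM of the members in FMT-Con A 1 (y axis) against FMT-Con A 3, FMT-Con A 2 and Con A 3 (x axes), all on log scales, with a line of equal levels. Points follow the line for FMT-Con A 3 (ratios 0.873 to 1.24, apart from Tnnc2 near 0) and lie above it with more scatter for FMT-Con A 2 and Con A 3.

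Fibre-type myosins differed in proportion between libraries. Of the counts of Myh4, Myh1, Myh2 and Myh7 together, Myh4 took 59.1% (exact 95% interval 58.9 to 59.3) in FMT-Con A 1 but 45.1% (44.2 to 46.1) in FMT-Con A 2. In FMT-Con A 3 its share was 58.7% (58.5 to 58.9). In Con A 3 Myh4 took 27.9% (27.2 to 28.7), and Myh1 was first there with 47.6% (46.8 to 48.4). Myh1 took 26.2, 35.1 and 26.4% in FMT-Con A 1, 2 and 3, and Myh2 took 12.2, 18 and 12.5%. In Con A 3 Myh2 took 22.1%. Slow Myh7 took 1.78 to 2.53% in all 4 libraries. The fast glycolytic form thus led in the FMT-Con A libraries and the intermediate form in Con A 3.

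The few myosin counts in the other libraries could also be typed in part. WT 1 had 48 counts, of which 54.2% (39.2 to 68.6) were Myh4 and 25% Myh1, and WT 3 had 52, of which 53.8% (39.5 to 67.8) were Myh4 and 25% Myh1. Both intervals hold the Myh4 shares of the 3 FMT-Con A libraries and lie above that of Con A 3. Con A 2 had 45 counts with 40% (25.7 to 55.7) Myh4 and 46.7% Myh1. Con A 1 had 23 counts, of which 13 were Myh7 and 4 were Myh4, while heart-type Myh6 had 33. WT 2 had 5 counts, too few to type. Myh6 was not counted in Con A 1 alone: it had 4, 9 and 34 counts in WT 1, 2 and 3, and 0 in Con A 2.

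**Figure D4:**
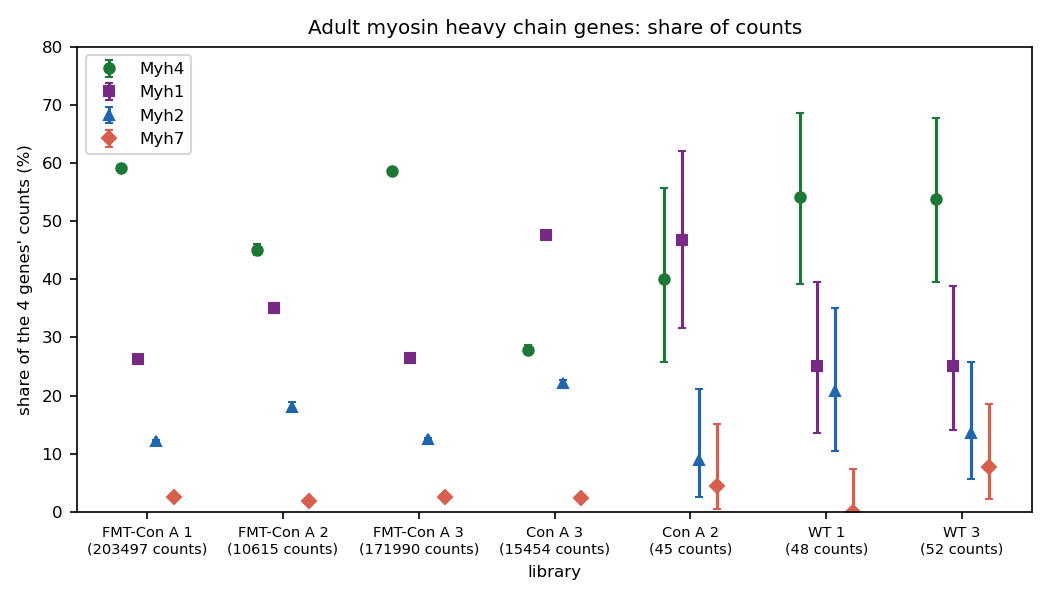
Share (y axis, percent) of each adult myosin heavy chain gene in the counts of the 4 together, by library, with exact 95% intervals for counting error. Myh4 is highest in the FMT-Con A libraries (45.1 to 59.1%), Myh1 in Con A 3 (47.6%), and libraries with 45 to 52 counts have wide intervals.

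In 3 other pairs Con A 3 stood apart from the FMT-Con A libraries as well. The count ratio of slow Mybpc1 to fast Mybpc2 was 0.698, 0.764 and 0.749 in FMT-Con A 1, 2 and 3, against 1.64 (exact 95% interval 1.5 to 1.8) in Con A 3. That of Actn3 to Actn2, the actinin of all fibres, was 1.64, 1.61 and 1.5 in FMT-Con A, against 0.571 in Con A 3. That of myoglobin (Mb, the oxygen store of oxidative fibres) to Pvalb was 2.46, 2.71 and 2.46 in FMT-Con A, against 6.53 in Con A 3. In these 3 ratios FMT-Con A 2 lay with FMT-Con A 1 and 3 and not with Con A 3. In others it did not: Mb to Acta1 was 0.175, 0.311 and 0.199 in FMT-Con A, against 0.343 in Con A 3, and Myh4 to Myh1 was 2.26, 1.29 and 2.23 in FMT-Con A, against 0.587 in Con A 3. Slow to fast troponin ratios of Con A 3 were nearer to those of FMT-Con A. Tnnt1 to Tnnt3 was 0.0697, 0.0703 and 0.0684 in FMT-Con A, against 0.0865 in Con A 3. With few Tnnt3 counts the ratio was 3 (1.48 to 6.58) in Con A 2 and 1.8 (0.924 to 3.64) in WT 1. Tnni1 to Tnni2 was 0.0321, 0.0227 (0.0164 to 0.0306) and 0.0318 in FMT-Con A, against 0.0195 (0.0141 to 0.0263) in Con A 3. The intervals of FMT-Con A 2 and Con A 3 overlap.

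FMT-Con A 2 departed from FMT-Con A 1 and 3 along the length of the transcripts. The ratio of FMT-Con A 2 to FMT-Con A 1 had a median of 0.146 over 13 members with under 2 kb of exons, 0.111 over 13 members of 2 to 4 kb, 0.0837 over 7 of 4 to 8 kb and 0.0749 over 6 of 8 kb or more. Ttn to Tcap, a very long and a very short transcript, stood at 8.94 and 9.9 in FMT-Con A 1 and 3, at 2.85 in FMT-Con A 2 and at 6.16 in Con A 3. Ryr1 to Mylpf stood at 1.49 and 1.6 in FMT-Con A 1 and 3, at 0.452 in FMT-Con A 2 and at 1.25 in Con A 3. Spearman's rho between exon length and the ratio of FMT-Con A 1 to FMT-Con A 2 was 0.76 over 39 members, which share both libraries. For the ratio of FMT-Con A 1 to Con A 3 it was 0.20 over 38 members.

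For FMT-Con A 2 over FMT-Con A 1, other protein-coding genes showed a weaker trend of the same sign as the members, whose rho was -0.76 in that direction. Their median ratio was 1.02 under 2 kb and 0.869 at 8 kb or more, with a rho of -0.17 over 12619 genes. Among 51 muscle genes that are no members, the medians were 0.148 under 2 kb (17 genes) and 0.084 at 8 kb or more (3 genes). FMT-Con A 1 and 3 also differed along length, over a narrower range of ratios. For FMT-Con A 3 over FMT-Con A 1, rho was 0.35 over 39 members, 0.56 over 55 other muscle genes and 0.21 over 12948 other protein-coding genes. The median ratios by length ran from 0.97 to 1.04 in members and from 0.953 to 1.04 in other protein-coding genes. What the trends with length come from was not tested.

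**Figure D5:**
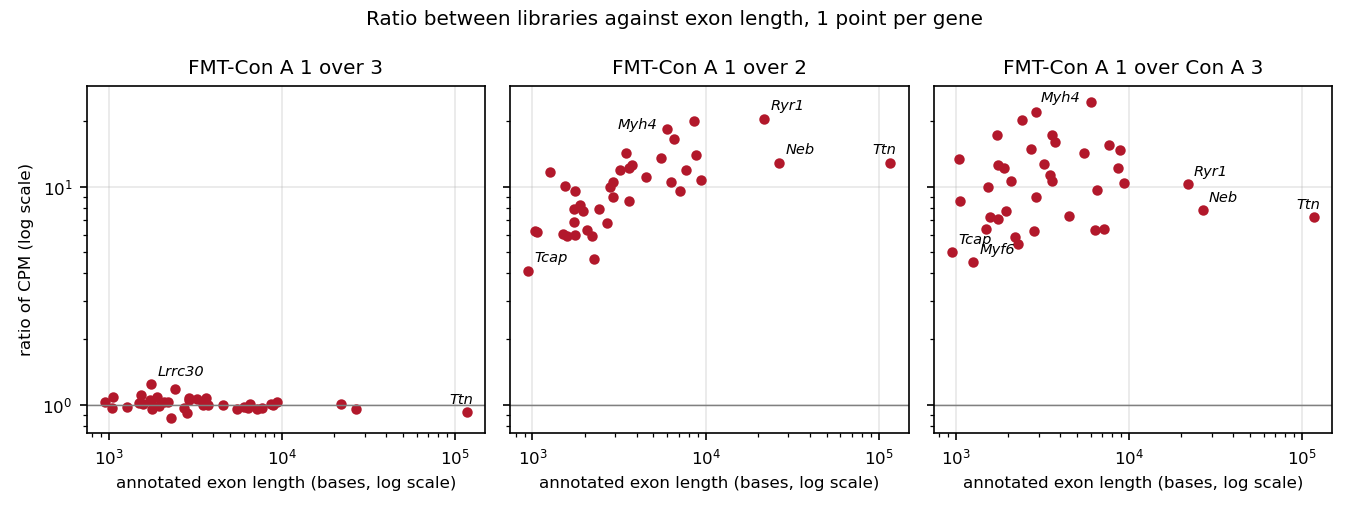
Ratio of CPM between 2 libraries (y axis, log scale) against annotated exon length in bases (x axis, log scale), 1 point per member. Ratios of FMT-Con A 1 to 3 stay at 0.873 to 1.24 at every length, those of FMT-Con A 1 to 2 climb from 4.12 (Tcap) to 20.5 (Ryr1), and those to Con A 3 scatter without that slope.

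Genes of the same tissue outside the member list were in the same libraries. A list of 36 further skeletal muscle genes summed to 2721, 287 and 2772 CPM in FMT-Con A, 16.8, 26.1 and 341 CPM in Con A, and 149, 124 and 164 CPM in WT. In FMT-Con A against Con A 18 of 34 tested were called higher and 0 lower, beside 6.26% of all genes called higher. Without Con A 3, 35 of 36 were called higher, beside 984 of 18446 genes. In Con A against WT 11 were called higher, a share near the 32.5% of all genes, and 2 (Hfe2 and Stac3) lower. Without Con A 3, 0 were called higher there by edgeR, beside 5425 of 18446 genes. In FMT-Con A against WT 32 were called higher and 1 (Hfe2) lower, beside 31.2% of all genes called higher. The highest by mean level were Cmya5 (myospryn), with 351, 22.4 and 363 CPM in FMT-Con A and 46.4 CPM in Con A 3, Xirp2, an actin-binding protein of myofibrils, and Pfkm, muscle phosphofructokinase. Hfe2, hemojuvelin, is made in hepatocytes and in muscle, and had 37.9, 7.51 and 38.1 CPM in FMT-Con A, 0.95, 2.07 and 5.91 CPM in Con A, and 110, 86.9 and 125 CPM in WT. It was lowest in the injected livers with few muscle transcripts.

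Sums of oxidative and slow-fibre genes shared with heart were highest in FMT-Con A 1 and 3 as well, with FMT-Con A 2 and Con A 3 next. The 11 genes of slow muscle and heart summed to 1148, 234 and 1146 CPM in FMT-Con A, 46.3, 38.2 and 220 CPM in Con A, and 33.2, 37.2 and 44 CPM in WT. Of these 11, 2 were called higher in FMT-Con A against Con A, 7 higher and 1 (Myh7b) lower in Con A against WT, and 10 higher in FMT-Con A against WT, where 6.26, 32.5 and 31.2% of all genes were called higher. Mb had 538, 94.6 and 553 CPM in FMT-Con A and 106 CPM in Con A 3, and at most 0.439 CPM elsewhere. Csrp3, a Z-disc protein, did not follow, with 36.6, 65.8 and 32.9 CPM in FMT-Con A, 44.6, 32.5 and 28 CPM in Con A, and 18, 25 and 29.9 CPM in WT. The 8 striated muscle mitochondrial and fatty acid genes, led by Ckmt2 and Fabp3, summed to 880, 129 and 798 CPM in FMT-Con A, 10.4, 13 and 150 CPM in Con A, and 16.8 to 20.5 CPM in WT. Of these 8, 3, 3 and 7 were called higher in FMT-Con A against Con A, Con A against WT and FMT-Con A against WT, and 0 lower. Against the same shares of all genes, the count in Con A against WT was near the background.

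Heart, embryonic and regenerating muscle were checked by their own markers. Among 14 heart genes Nppb and Nkx2-5 were at 0 in all 9 libraries, cardiac actin Actc1 reached at most 0.743 CPM and cardiac troponin Tnni3 at most 0.615 CPM. Without Sbk1, which was at 6.56 to 31.3 CPM in every library, the heart list summed to 9.78 to 48.3 CPM in FMT-Con A, 3.95 to 8.73 CPM in Con A and 5.46 to 8.52 CPM in WT. Most of the sum in FMT-Con A 1 and 3 was Myh6, with 40.1, 4.59 and 39.5 CPM in FMT-Con A and 4.91 CPM in Con A 3. The ratio of Actc1 to Acta1 was 0.000177 to 0.00152 in FMT-Con A. The 11 embryonic, neonatal and regeneration genes summed to 4.21, 0.51 and 4.29 CPM in FMT-Con A, 0.136 to 0.772 CPM in Con A and 0.571 to 1.32 CPM in WT. Embryonic Myh3 reached at most 0.248 CPM and the fusion gene Mymx 0.0453 CPM. Cdh15, M-cadherin of muscle precursors, had 1.6, 0.278 and 1.2 CPM in FMT-Con A, 0, 0 and 0.386 CPM in Con A, and 0 in WT. Neonatal Myh8 had 1.02, 0.0927 and 0.908 CPM in FMT-Con A, 0, 0 and 0.116 CPM in Con A, and 0 in WT, so both were highest in the libraries rich in muscle counts.

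Genes that mark where in the body a muscle lies were few but detectable. The 22 position factors summed to 16.5, 2.78 and 16 CPM in FMT-Con A, 1.4, 1.65 and 2.97 CPM in Con A, and 0.791 to 1.68 CPM in WT. Tbx1, a T-box factor of head muscle development, had 5.9, 0.51 and 5.28 CPM in FMT-Con A and 0.772 CPM in Con A 3. Lbx1, needed by migrating muscle precursors, had 2.75, 0.232 and 2.48 CPM in FMT-Con A, 0.27 CPM in Con A 3 and 0 in the other 5 libraries. Hoxc6 had 1.53, 0.139 and 1.11 CPM in FMT-Con A and at most 0.154 CPM elsewhere, while Hoxa10, Hoxa11, Hoxc11 and Hoxd10 were at 0 in all 9. At these levels a count of 0 allows 0.1 to 0.15 CPM.

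Markers of other tissues that could lie next to muscle or liver are given beside the members. Of 10 smooth muscle genes, Des, which striated muscle also makes, had 482, 58.9 and 472 CPM in FMT-Con A and 83.5 CPM in Con A 3. The other 9 summed to 111, 10.5 and 112 CPM in FMT-Con A, 10.1 to 12.6 CPM in Con A and 9 to 13.1 CPM in WT. Smooth muscle myosin Myh11 had 14.8, 0.927 and 14.3 CPM in FMT-Con A, 1.31, 2.71 and 1.08 CPM in Con A, and 2.34, 3.83 and 1.32 CPM in WT. The sum of these 9 was thus high in FMT-Con A 1 and 3, while FMT-Con A 2 and Con A 3 lay within the range of the other libraries. Much of it was Synpo2, an actin-binding protein that striated muscle also makes, with 68.6, 5.28 and 72.3 CPM in FMT-Con A, 1.36, 1.01 and 4.83 CPM in Con A, and 0.731, 0.574 and 0.527 CPM in WT. Its values in FMT-Con A 2 and Con A 3 were above those of Con A 1, Con A 2 and WT.

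The sum of fat genes without Car3 was highest in FMT-Con A 1 and 3. Without Car3, which liver makes at 642 to 7786 CPM, 9 adipocyte genes summed to 65.1, 11 and 62.1 CPM in FMT-Con A, 2.44, 6.15 and 4.94 CPM in Con A, and 15.7, 29.4 and 5.31 CPM in WT. Cfd, adipsin, had 35.3, 3.61 and 32.7 CPM in FMT-Con A, 0.543, 2.39 and 0.966 CPM in Con A, and 3.17, 10.5 and 0.483 CPM in WT. Adipoq, adiponectin, had 12.6, 1.62 and 11.6 CPM in FMT-Con A, 0.0905, 1.65 and 0.463 CPM in Con A, and 1.51, 4.64 and 0 CPM in WT. WT 2 was the highest WT library for both fat genes, and it had the lowest member sum among WT. Of the 10 adipocyte genes 9 were tested. In FMT-Con A against Con A 2 were called higher and 0 lower, beside 6.26% of all genes called higher. In Con A against WT 0 were higher and 2 (Adrb3 and Car3) lower, beside 5749 higher and 5470 lower of 17704 genes. In FMT-Con A against WT 1 was higher and the same 2 lower, beside 5517 and 4932 of 17704 genes.

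Skin, pancreas, lung and gut sums in FMT-Con A 1 and 3 lay within or below the range of the 6 Con A and WT libraries, and kidney and bone sums were near 0. The 12 epidermal genes summed to 2.13 to 3.33 CPM in FMT-Con A, 1.51 to 2.34 CPM in Con A and 3.21 to 3.61 CPM in WT, and Krt5, Krt1, Krt77, Flg, Flg2 and Calml3 were at 0 in all 9. The skin sums of FMT-Con A 1 and 3, at 3.33 and 2.52 CPM, were above those of all 3 Con A libraries, and Krt10, a keratin of upper epidermis, had 2.24, 1.67 and 1.57 CPM in FMT-Con A, 0.407, 1.06 and 0.772 CPM in Con A, and 3.22, 3.06 and 2.68 CPM in WT. The 8 kidney genes summed to at most 0.238 CPM and the 9 bone and cartilage genes to at most 0.509 CPM, both highest in FMT-Con A 1. Of 10 pancreas genes, Cela1 made up nearly all of the sum and had 3.33, 7.28 and 3.51 CPM in FMT-Con A, against 14.5 to 18.2 CPM in WT. Lung genes summed to 4.91 to 5.79 CPM in FMT-Con A, 3.82 to 8.01 CPM in Con A and 7.61 to 12.5 CPM in WT. Gut genes, almost all Fabp2, summed to 28.6 to 51.4 CPM in FMT-Con A, 33.2 to 62.8 CPM in Con A and 68.1 to 94.8 CPM in WT.

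Nerve, tendon and mesothelial lists were higher by small amounts. Nerve and Schwann cell genes summed to 11.2, 6.44 and 11.2 CPM in FMT-Con A, 2.85 to 4.09 CPM in Con A and 6.03 to 6.59 CPM in WT. Tendon and fascia genes summed to 9.4, 4.73 and 9.04 CPM in FMT-Con A, 2.85 to 5.83 CPM in Con A and 7.51 to 8.17 CPM in WT. The 6 mesothelial genes summed to 14.2, 8.2 and 14.2 CPM in FMT-Con A, 4.32 to 9.08 CPM in Con A and 4.16 to 7.38 CPM in WT. The part of any of these tissues in the members' levels was not tested.

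Liver's own transcripts were abundant in all 9 libraries, as the label says. The 12 hepatocyte genes summed to 50935, 54673 and 49481 CPM in FMT-Con A 1, 2 and 3, 65716 to 70591 CPM in Con A and 59722 to 72866 CPM in WT. Alb, albumin, had 21710, 17395 and 21371 CPM in FMT-Con A, 32877, 32016 and 32049 CPM in Con A, and 40641, 34020 and 47250 CPM in WT. FMT-Con A 2, the library of its group with few muscle counts, had the lowest albumin of all 9 but the highest hepatocyte sum of its group. Con A 3, with 2332 CPM of muscle genes, did not differ in albumin from Con A 1 and 2 beyond their own spread.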

How the data were processed

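Polyadenylated liver RNA of 9 mouse libraries was measured, and the values are the read counts per gene deposited by the authors, 1 file per library, without normalisation. The build GRCm38 (mm10) and the tools featureCounts, HISAT2 and CASAVA are named per the submitters' processing notes. Versions, annotation, strand setting and treatment of multi-mapping reads are not given in the sources used here, so reads of overlapping, antisense or near-identical genes cannot be told apart. Symbols and positions (counted from 1) come from GENCODE vM21 on GRCm38, which paired 52083 of 55359 Ensembl identifiers.

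Levels are CPM of the library total. Genes were filtered with edgeR 4.0.16 (filterByExpr, minimum count 10, minimum total 15), which kept 17704, scaled by TMM and tested in 1 quasi-likelihood fit of the 3 groups (6 residual degrees of freedom, two-sided, Benjamini-Hochberg adjusted p under 0.05). The script was tested on simulated counts. Intervals are exact Clopper-Pearson (95%). DESeq2 1.42.0, other filters, scalings and sample sets were alternatives.

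Members and gene lists were chosen with earlier results of these data known. Values in every library are given for the 3 members of highest mean level in each of 7 roles and for Myh7, Tnni1, Tnnt1, Mstn, Myf6 and Tbx15. Of other lists, genes of highest mean level are named. Sums without Sbk1, Des, Car3 or Neb and Eno3, and other genes named, were chosen after their values were seen. Promoters are from RefSeq (GRCm38.p6).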

Additional observations from a re-analysis of the deposited data

How the results depend on the processing

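Of 150 alternative values for the counts of called genes and the summed levels, 96 were within 1.5 times or the replicate spread and 54 were not. The FMT-Con A against Con A count of all genes was 2981, 1156 with only the groups compared and 99 with FMT-Con A 1 and 3 left out (added after seeing the data), and 664 to 4053 without 1 library. Members called higher there (14) were 39 with no filter, 35 with the replicate block, 2 with only the groups compared, 5 by DESeq2, 0 with FMT-Con A 1 and 3 left out, and 0 to 39 without 1 library. Further skeletal muscle genes (18) were 35, 32, 1, 8 and 0 under those 5 settings and 1 to 35 without 1 library. In Con A against WT, members (22) were 34 with no filter, 9 (of only 13 that passed the filter) with only the groups compared, 9 by DESeq2 and 0 to 31 without 1 library. Further muscle genes (11) were 25 with no filter, 1 (of 11 that passed the filter) with only the groups compared and 0 to 21 without 1 library, and all genes 9937 to 12101. In FMT-Con A against WT all genes (10449) were 6957 with FMT-Con A 1 and 3 left out and 9060 to 11349 without 1 library. Members (39) were 16 by DESeq2 and 38 to 39 without 1 library, and further muscle genes (32) were 18 with FMT-Con A 1 and 3 left out and 31 to 35 without 1 library. DESeq2 gave no adjusted p for 23 members in each comparison, so its member counts are out of the rest. Where 1 group had a lone library, its spread was assumed to equal that of the others. The cause of the other shifts was not tested. The replicate block changed no other count by over 1.5 times, and the numbers do not pair libraries: deviations of same-numbered FMT-Con A and Con A libraries correlated -0.22, 0.25 and 0.34, and not every library correlated best with its own number. The median WT sum of the members was 69 CPM, and 88 CPM with mitochondrially encoded genes left out of the library total. In libraries other than FMT-Con A and Con A 3, most members had too few counts for ratios.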

Other observations

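Genes outside every list shared the members' order of libraries. A rule chosen after the values were seen (at least 5 CPM in FMT-Con A 1 and 3, 5-fold over FMT-Con A 2, and FMT-Con A 2 and Con A 3 each 5-fold over Con A 1 and 2, with at least 10 counts in Con A 3) picked 172 genes. They were 36 of the members, 37 genes of the other lists and 99 genes in no list. Their summed level was 33011, 3182 and 32752 CPM in FMT-Con A 1, 2 and 3, against 3650 CPM in Con A 3. Among the 99 was Tpm2 (beta-tropomyosin), with 779, 102 and 754 CPM in FMT-Con A, 0.272, 1.19 and 85.6 CPM in Con A, and 1.8, 1.48 and 1.49 CPM in WT. H19, an imprinted noncoding RNA, had 286, 28.9 and 283 CPM in FMT-Con A, 0, 0.138 and 51.5 CPM in Con A, and at most 0.341 CPM in WT. The sodium channel genes Scn4a and Scn4b and the muscle ribosomal protein gene Rpl3l had 52.4, 76.4 and 56.3 CPM in FMT-Con A 1, against 6.53, 8.84 and 7.3 CPM in Con A 3.

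Some of these genes had a WT level of their own. Nrep had 12.1, 1.67 and 14.9 CPM in FMT-Con A, 0.272, 0.322 and 1.93 CPM in Con A, and 57.8, 71.2 and 69.8 CPM in WT. Klhl33 had 27.3, 2.73 and 26 CPM in FMT-Con A, 0.226, 0.23 and 2.82 CPM in Con A, and 14.9, 12.7 and 15.7 CPM in WT. As for Neb, Eno3 and Hfe2, WT lay above Con A 1 and 2.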
